A study of Mus musculus with 11 samples.

Results

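Extracellular matrix and myofibroblast genes were examined in cultured mouse macrophages given TGF-β1 with or without hemin. The set was defined by name and held 32 genes: collagens, matrix glycoproteins, proteoglycans, collagen crosslinking enzymes and contractile genes. Of these, 31 were among the 25121 genes of the deposited table and were taken by their gene symbol. The remaining gene, Lum, was not analysed here. A filter on low counts left 30 of the 31 for testing, among 15132 tested genes in all.

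The cells were bone marrow-derived macrophages grown on a Transwell insert, a porous membrane that keeps them apart from a lower layer of primary renal proximal tubular epithelial cells while sharing the medium. RNA from the macrophages was sequenced after 72 h. In the 5 hemin libraries (replicates 2 to 6) the cultures received TGF-β1 at 5 ng/mL and hemin, the oxidised iron-containing porphyrin, at 10 µM. In the 6 TGF-β1 libraries (replicates 1 to 6) they received TGF-β1 at 5 ng/mL alone. Every culture therefore had TGF-β1 and epithelial cells beside it, and neither macrophages without TGF-β1 nor macrophages alone were analysed here. The labels give no genotype, strain, age or sex, and leave it unsaid whether the replicates are separate animals or cultures. The p-values measure the spread between these libraries, which may be technical.

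Extracellular matrix is the protein scaffold around cells. Fibrillar collagens give it tensile strength, type IV collagen, laminins, nidogen and perlecan form the sheets called basement membranes, and fibronectin and other glycoproteins link these fibres to cell surface receptors. Lysyl oxidases crosslink collagen and elastin. In kidney fibrosis TGF-β1 drives myofibroblasts, contractile matrix-producing cells that contain smooth muscle α-actin, to lay down collagen and fibronectin. Macrophages are better known for clearing and remodelling matrix than for making fibrillar collagen, although they produce fibronectin and some collagens.

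Promoter sequences are shown for 3 of the genes that rose with hemin and lie close together on chromosome 10, and for Col1a2 and Acta2, which did not pass the test, as comparison. Each window runs from 250 bases before to 50 bases after a RefSeq gene start and is 300 bases long. The coordinates are those of GRCm38.p6, the build of the RefSeq table, and not of GRCm39, the build of the count table. Capitals mark matches, on either strand, to 3 motifs: TGACNNNGC, the core of the antioxidant response element, TGANTCA, the AP-1 site, and CAGAC, a SMAD-binding box. The first pair of motifs can overlap in their letters TGA.
Col18a1, upstream start (chr10:77166481-77166780, minus strand): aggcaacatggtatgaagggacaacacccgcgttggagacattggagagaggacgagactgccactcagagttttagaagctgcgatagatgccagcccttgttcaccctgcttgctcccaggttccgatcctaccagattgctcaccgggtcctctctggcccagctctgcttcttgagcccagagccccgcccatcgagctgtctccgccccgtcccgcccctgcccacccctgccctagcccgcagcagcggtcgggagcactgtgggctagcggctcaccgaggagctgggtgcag
Col18a1, downstream start (chr10:77113656-77113955, minus strand): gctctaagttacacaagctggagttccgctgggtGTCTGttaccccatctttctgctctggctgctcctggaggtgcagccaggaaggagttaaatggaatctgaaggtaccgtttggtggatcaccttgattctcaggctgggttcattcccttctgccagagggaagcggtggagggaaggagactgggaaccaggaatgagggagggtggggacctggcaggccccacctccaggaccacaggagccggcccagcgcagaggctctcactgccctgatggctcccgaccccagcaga
Col6a1 (chr10:76725995-76726294, minus strand): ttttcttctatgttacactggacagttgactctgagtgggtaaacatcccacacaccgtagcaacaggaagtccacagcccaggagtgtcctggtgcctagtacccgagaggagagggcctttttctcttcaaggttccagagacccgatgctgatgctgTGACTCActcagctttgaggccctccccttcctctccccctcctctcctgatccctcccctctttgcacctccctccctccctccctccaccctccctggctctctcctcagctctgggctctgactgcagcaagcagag
Col6a2, upstream start (chr10:76623581-76623880, minus strand): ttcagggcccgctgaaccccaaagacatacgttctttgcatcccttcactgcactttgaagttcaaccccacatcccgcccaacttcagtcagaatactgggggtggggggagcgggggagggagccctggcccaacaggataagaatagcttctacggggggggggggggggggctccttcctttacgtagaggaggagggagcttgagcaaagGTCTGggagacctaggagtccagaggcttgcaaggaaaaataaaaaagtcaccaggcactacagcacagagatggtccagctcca
Col6a2, downstream start (chr10:76623355-76623654, minus strand): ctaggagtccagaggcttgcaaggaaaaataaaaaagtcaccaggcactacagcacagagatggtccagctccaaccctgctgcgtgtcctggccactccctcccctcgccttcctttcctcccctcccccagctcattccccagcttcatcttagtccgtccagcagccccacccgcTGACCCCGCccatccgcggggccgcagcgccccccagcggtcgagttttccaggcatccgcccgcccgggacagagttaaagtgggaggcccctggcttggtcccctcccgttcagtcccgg
Col1a2 (chr6:4505368-4505667, plus strand): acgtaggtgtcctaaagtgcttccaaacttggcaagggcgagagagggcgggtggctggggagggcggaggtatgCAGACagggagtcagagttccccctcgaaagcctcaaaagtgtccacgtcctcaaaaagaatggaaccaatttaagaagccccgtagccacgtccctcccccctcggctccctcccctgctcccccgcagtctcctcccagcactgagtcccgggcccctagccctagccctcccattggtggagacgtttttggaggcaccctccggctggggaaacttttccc
Acta2 (chr19:34255324-34255623, minus strand): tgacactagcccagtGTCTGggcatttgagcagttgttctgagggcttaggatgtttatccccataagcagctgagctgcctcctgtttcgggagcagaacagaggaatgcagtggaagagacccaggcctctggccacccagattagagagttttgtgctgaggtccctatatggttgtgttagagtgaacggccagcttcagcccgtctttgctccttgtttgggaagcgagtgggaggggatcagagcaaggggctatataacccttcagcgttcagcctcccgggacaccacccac

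The upstream Col18a1 window held none of these letters. The downstream one held a SMAD box on the opposite strand, beginning at position -216 counted from the gene start. Col6a1 held an AP-1 site at -90, which reads as a match on both strands. The downstream Col6a2 window held an antioxidant response element core at -72, and its upstream window held a SMAD box at -35. Col1a2 and Acta2 each held a SMAD box, at -175 and -235. Over all 32851 RefSeq windows of this length, 12.4% held the antioxidant response element core, 7.81% the AP-1 site and 49.6% the SMAD box. Among the 20 set genes with a window, the antioxidant response element core was in those of 4 genes (Col4a2, Col6a2, Postn and Vcan), the AP-1 site in that of 1 (Col6a1), and the SMAD box in those of 13. Some genes had more than 1 window. Counted by window, as the shares are, the motifs were in 4, 1 and 14 of 24. These matches describe letters only. No window was at hand for Gpc1, Col1a1, Fn1 or Tagln.

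Total counts ran from 66695616 to 96586085 per hemin library and from 65509474 to 71458745 per TGF-β1 library, with hemin replicates 5 and 6 deepest. Levels of a gene between libraries are given as CPM, counts scaled to a common library size, which correct for this depth. The macrophage label was checked against 10 markers, among them Lyz2, Csf1r and Adgre1. Their summed level was 4918 to 5752 FPKM in hemin libraries and 4093 to 6050 FPKM in TGF-β1 libraries. FPKM, fragments per kilobase of transcript and sequencing depth, is the scale used here to compare levels between genes. Summed in the same way by role, the set was low against this. Its highest sum, that of the glycoproteins, was 44.5 to 86.6 FPKM in hemin libraries and 66.3 to 144 FPKM in TGF-β1 libraries. By mean FPKM over the 11 libraries the single genes were led by Fn1 (68.4), Acta2 (26.6), Col1a1 (18.3), Sparc (12.2), Tagln (10.8) and Gpc1 (10.6), and Dcn was lowest at 0.0219.

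**Figure D1:**
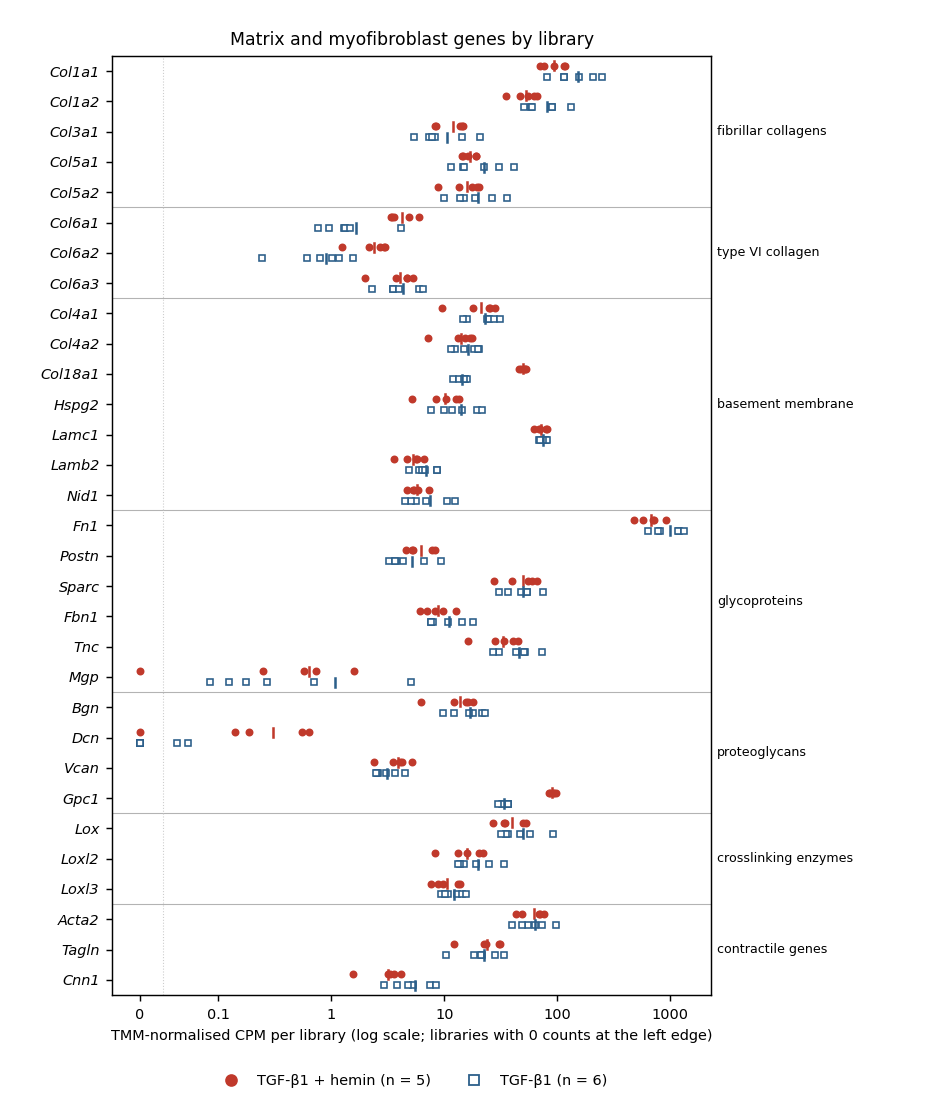
Level of each gene of the set in every library, in CPM on a log axis, grouped by role, with hemin libraries drawn above TGF-β1 libraries in each row and a tick at the group mean. Col18a1 and Gpc1 are the genes whose groups do not overlap, and the spread within a group is wide for most of the others.

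Whether hemin changed matrix and contractile genes in TGF-β1-treated macrophages was asked by comparing the groups. Col18a1, Gpc1, Col6a1 and Col6a2 rose with hemin, each between 2.58-fold and 3.45-fold. None of the 30 tested genes fell at an adjusted p under 0.05, although 5 had an unadjusted p under 0.05 in that direction. All tests are edgeR's quasi-likelihood F test with Benjamini-Hochberg adjustment over all 15132 tested genes, and fold changes are hemin over TGF-β1. Over all tested genes 8.43% rose and 5.75% fell, and 11.9% had an unadjusted p under 0.05 in the lower direction. DESeq2 called the same number higher, 4, and called 1 lower, Cnn1. Of all genes it tested it called 8.05% lower, and its share higher is not given here. The 26 genes that did not pass comprised 22 with a negative and 4 with a positive log2 fold change. These signs are not independent, because most genes of the set varied together across libraries. TGF-β1 replicate 6 alone was the highest TGF-β1 library for 25 of the 30 tested genes. The share of all tested genes with a negative sign is not given here. The median log2 fold change was -0.26 over the 30 genes and -0.00 over all tested genes. Changes in bulk RNA do not tell fewer cells of a type from less RNA per cell.

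**Figure D2:**
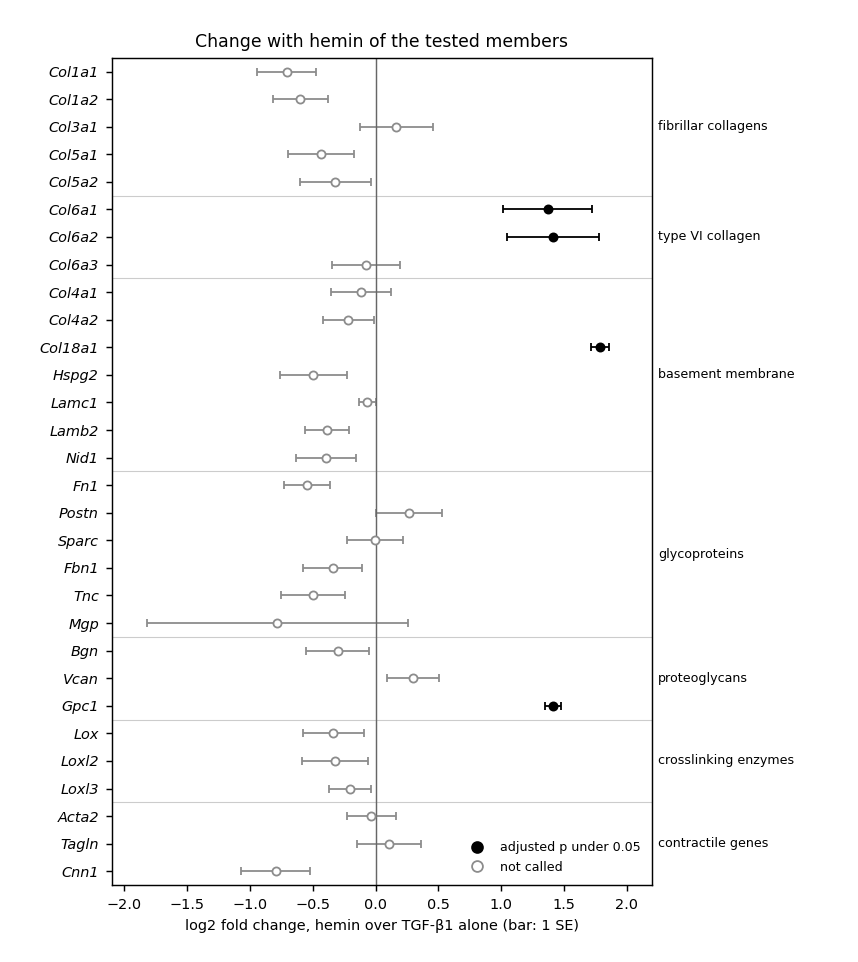
Log2 fold change of each tested gene, hemin over TGF-β1, with its standard error, ordered by role; filled points had an adjusted p under 0.05 in edgeR's quasi-likelihood test. The 4 filled points are Col18a1, Col6a1, Col6a2 and Gpc1, at 1.37 to 1.79, and 22 of the 26 open points lie below 0. Most of these genes varied together across libraries, so the points are not independent.

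Col18a1, which encodes the basement membrane collagen whose cleaved end is endostatin, showed the largest fold change among the 30 tested genes. Its level was 45.7, 51.1, 52.9, 47.6 and 52.1 CPM in hemin replicates 2 to 6, against a lowest, median and highest value of 12.1, 15.1 and 15.8 CPM in the TGF-β1 libraries. Every hemin library lay far above every TGF-β1 library, and the libraries of each group lay close together. With hemin the log2 fold change was 1.79 (SE 0.07, adjusted p = 1.96e-10), a 3.45-fold higher level. Per length it averaged 6.36 ± 0.402 FPKM with hemin and 1.99 ± 0.192 FPKM with TGF-β1 alone (SD, n = 5 and 6). In GRCm39 the gene spans chromosome 10 from 76888012 to 77002382 on the minus strand.

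Gpc1 encodes glypican-1, a heparan sulfate proteoglycan anchored in the cell membrane. It stood at 86.2, 83.9, 91.5, 94.5 and 97.3 CPM in the hemin libraries, against 29.7 (lowest), 34.7 (median) and 36.7 CPM (highest) in the TGF-β1 libraries. The groups were again separate. Its log2 fold change was 1.41 (SE 0.06, adjusted p = 2.82e-10), or 2.66-fold. Mean levels per length were 15.7 ± 0.975 FPKM with hemin and 6.37 ± 0.614 FPKM without (SD, n = 5 and 6). Gpc1 lies on chromosome 1 from 92759367 to 92788501 on the plus strand and overlaps Ankmy1 on the opposite strand. The setting used to count strands is not given in the sources used here, so reads of that gene could be among its counts. Col18a1 and Gpc1 were the 2 genes of the set whose groups did not overlap, both higher with hemin. Over all tested genes 10.2% had no overlap, 6.29% higher and 3.93% lower with hemin.

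Type VI collagen is a beaded microfibril built from 3 chains, encoded by Col6a1, Col6a2 and Col6a3. Col6a1 had 3.44, 3.39, 3.56, 6.01 and 4.85 CPM in the hemin libraries, and a lowest, median and highest value of 0.756, 1.30 and 4.10 CPM in the TGF-β1 libraries. TGF-β1 replicate 6 overlapped the hemin range, and the other TGF-β1 libraries were below it. Col6a1 had a log2 fold change of 1.37 (SE 0.35, adjusted p = 0.0149). Without that library it was 1.88, and without hemin replicate 5 it was 1.21 with an adjusted p of 0.0505, which no longer passed.

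Col6a2 had 2.15, 1.23, 2.99, 2.91 and 2.72 CPM with hemin, against 0.243, 0.910 and 1.57 CPM as the lowest, median and highest TGF-β1 value. Hemin replicate 3 lay inside the range of the TGF-β1 libraries and the other hemin libraries lay above it. Its log2 fold change was 1.41 (SE 0.37, adjusted p = 0.0154). The third chain gave no such difference. Col6a3 had 4.64, 5.30, 1.97, 3.76 and 4.70 CPM with hemin, and 2.30, 3.74 and 6.51 CPM as the lowest, median and highest TGF-β1 value. Those ranges overlapped almost fully, with a log2 fold change of -0.08 (SE 0.27, adjusted p = 0.908). The difference between the fold changes of the chains was not tested. All these levels were low, with mean values of 0.591, 0.173 and 0.327 FPKM for Col6a1, Col6a2 and Col6a3.

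Col6a2, Col6a1 and Col18a1 lie within 570.787 kb of each other on chromosome 10 in GRCm39, all on the minus strand. Col6a2 spans 76431596 to 76459464 and Col6a1 76544626 to 76562002. The interval from the start of Col6a2 to the end of Col18a1 held 6 genes of the table, of which 5 were tested, 3 rose and 0 fell. The 2 tested genes between them did not pass. Pcbp3, an RNA-binding protein gene, had a log2 fold change of -0.15 (adjusted p = 0.705). Slc19a1, the reduced folate carrier, had -0.05 (adjusted p = 0.741). The interval was described after the values of its genes were known, and its ends were set by Col6a2 and Col18a1, which rose. With Col6a1 inside it, the 3 that rose follow from how it was drawn. They cannot be set against the 8.43% of all tested genes that rose.

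The fibrillar collagens, the chains of types I, III and V that form the collagen fibrils of scars, had 5 of 5 genes tested and none past the threshold in edgeR or DESeq2, with 2 lower at an unadjusted p under 0.05. Col1a1 had 116, 93.0, 69.9, 76.5 and 117 CPM with hemin, against a lowest, median and highest value of 81.8, 135 and 249 CPM with TGF-β1 alone. All hemin libraries lay below the TGF-β1 median, yet the groups overlapped because the TGF-β1 libraries themselves spread 3.04-fold. This gave a log2 fold change of -0.71 (SE 0.24, adjusted p = 0.0583). Col1a2 had 62.6, 55.2, 35.1, 46.7 and 66.5 CPM with hemin and 51.1, 75.3 and 132 CPM as the lowest, median and highest TGF-β1 value. Its log2 fold change was -0.60 (SE 0.22, adjusted p = 0.084), and the groups overlapped. Col3a1 had a log2 fold change of 0.16 (SE 0.29, adjusted p = 0.802), Col5a1 -0.43 (SE 0.26, adjusted p = 0.336) and Col5a2 -0.32 (SE 0.28, adjusted p = 0.544). For Col3a1 all hemin libraries, at 8.34 CPM or more, lay above the TGF-β1 median of 8.07 CPM, and the groups overlapped.

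Both type I collagen genes and Fn1 were close to the threshold, and the outcome turned on which libraries entered. Col1a1 passed as lower in edgeR without TGF-β1 replicate 2, 3 or 4, and Col1a2 without TGF-β1 replicate 3. Fn1 passed without TGF-β1 replicate 2 or 3, and without hemin replicate 3. Cnn1, described with the contractile genes, passed without TGF-β1 replicate 4. The number of genes called lower was 3 at most, without TGF-β1 replicate 3.

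Among the 7 basement membrane genes, Col18a1 rose and the other 6 did not pass in edgeR or DESeq2, with 1 lower at an unadjusted p under 0.05, Lamb2. Col4a1 and Col4a2 encode the chains of the type IV collagen network, and their 5′ ends overlap on opposite strands. Col4a1 had 25.6, 24.7, 9.59, 18.1 and 28.0 CPM with hemin, against 14.5, 24.5 and 31.1 CPM as the lowest, median and highest TGF-β1 value. Apart from hemin replicate 4, which was below every TGF-β1 library, the hemin libraries lay inside the range of the TGF-β1 libraries. Its log2 fold change was -0.12 (SE 0.24, adjusted p = 0.836), and that of Col4a2 was -0.22 (SE 0.20, adjusted p = 0.580). Hspg2, which encodes perlecan, had a log2 fold change of -0.49 (SE 0.26, adjusted p = 0.263). Nid1, a linker between laminin and type IV collagen, had -0.40 (SE 0.24, adjusted p = 0.326), and the laminin β2 chain gene Lamb2 had -0.39 (SE 0.17, adjusted p = 0.168).

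Lamc1, the laminin γ1 chain gene, was the steadiest of the genes that did not pass. It had 70.0, 80.7, 68.8, 62.6 and 79.6 CPM with hemin, and 69.3, 76.3 and 81.9 CPM as the lowest, median and highest TGF-β1 value. The log2 fold change of -0.06 (SE 0.07, adjusted p = 0.632) came with a narrow error, unlike those of most of the set.

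The 6 matrix glycoproteins gave no call in either direction in edgeR or DESeq2, with 1 lower at an unadjusted p under 0.05, Fn1. Fn1, fibronectin, was the most abundant gene of the set. It had 721, 914, 478, 578 and 699 CPM in the hemin libraries, against a lowest, median and highest value of 633, 991 and 1331 CPM in the TGF-β1 libraries. All hemin libraries lay below the TGF-β1 median and 3 of them were inside the range of the TGF-β1 libraries. The log2 fold change was -0.54 (SE 0.19, adjusted p = 0.0640), with mean levels of 52.1 ± 13.5 FPKM with hemin and 82.1 ± 25.0 FPKM with TGF-β1 alone (SD, n = 5 and 6). Tnc, which encodes tenascin-C, a glycoprotein of injured tissue, averaged 32.8 ± 11.2 CPM with hemin and 46.3 ± 17.0 CPM without (log2 fold change -0.50, SE 0.25, adjusted p = 0.234). Sparc, a collagen-binding glycoprotein, averaged 49.5 ± 15.6 CPM with hemin and 49.6 ± 15.8 CPM without (log2 fold change -0.00, SE 0.22, adjusted p = 0.998).

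Postn, which encodes periostin, had a log2 fold change of 0.27 (SE 0.26, adjusted p = 0.597) and Fbn1, fibrillin-1 of the microfibrils, had -0.34 (SE 0.24, adjusted p = 0.411). For Postn all hemin libraries, at 4.56 CPM or more, lay above the TGF-β1 median of 4.01 CPM, and the groups overlapped. Mgp, matrix Gla protein, an inhibitor of calcification, was low and uneven. It had 1.59, 0.729, 0, 0.250 and 0.570 CPM with hemin, against 0.0840, 0.223 and 5.11 CPM as the lowest, median and highest TGF-β1 value. The highest value came from TGF-β1 replicate 2. The log2 fold change was -0.78 (SE 1.04, adjusted p = 0.721), and without that library it was 1.20, so Mgp has no firm direction.

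Apart from Gpc1, the proteoglycans gave no call. Vcan, which encodes the large proteoglycan versican, had a log2 fold change of 0.30 (SE 0.21, adjusted p = 0.414), and Bgn, the small leucine-rich proteoglycan biglycan, had -0.30 (SE 0.25, adjusted p = 0.512). Dcn, decorin, a small proteoglycan made abundantly by fibroblasts, did not pass the filter. Its raw counts were 12, 10, 38, 0 and 59 reads in hemin replicates 2 to 6 and 0, 0, 3, 0, 4 and 0 reads in TGF-β1 replicates 1 to 6. Hemin replicates 2, 3, 4 and 6 exceeded every TGF-β1 library and hemin replicate 5 had none. No test was made on these counts.

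Lox, Loxl2 and Loxl3, the lysyl oxidase genes of the set, did not pass in edgeR or DESeq2, and 0 had an unadjusted p under 0.05. Lox had 27.0 to 52.7 CPM with hemin (mean 39.6 ± 11.2, SD, n = 5), against 32.1, 41.9 and 91.5 CPM as the lowest, median and highest TGF-β1 value. Its groups overlapped, with a log2 fold change of -0.33 (SE 0.24, adjusted p = 0.442). The values were -0.32 for Loxl2 (SE 0.26, adjusted p = 0.504) and -0.21 for Loxl3, which overlaps Htra2 on the opposite strand (SE 0.17, adjusted p = 0.499).

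The contractile genes of the myofibroblast were not called by edgeR either. Acta2, smooth muscle α-actin, had 76.8, 48.8, 43.6, 68.9 and 70.4 CPM with hemin, against 40.0, 59.4 and 96.9 CPM as the lowest, median and highest TGF-β1 value. The hemin libraries lay on both sides of the TGF-β1 median. Its means were 61.7 ± 14.6 CPM with hemin and 63.1 ± 20.2 CPM with TGF-β1 alone (SD, n = 5 and 6), with a log2 fold change of -0.03 (SE 0.19, adjusted p = 0.951). Tagln, transgelin, which overlaps Pcsk7 on the opposite strand, had a log2 fold change of 0.11 (SE 0.25, adjusted p = 0.861). Cnn1, calponin-1, which binds actin in smooth muscle, had 3.15, 4.12, 1.54, 3.60 and 3.31 CPM with hemin and 2.93, 5.04 and 8.41 CPM as the lowest, median and highest TGF-β1 value. All hemin libraries were below the TGF-β1 median, and the ranges overlapped. The log2 fold change was -0.79 (SE 0.27, adjusted p = 0.0673) in edgeR's test and -0.80 with an adjusted p of 0.0151 in DESeq2.

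The design also allowed the genes to be followed from library to library with the treatment difference removed. For this, log2(CPM + 0.5) of each gene was taken as a departure from its own group mean. The set varied together. The median Pearson correlation over the 435 pairs of the 30 tested genes was 0.68 over 11 libraries, against -0.00 over all pairs of tested genes. It was 0.70 within the hemin libraries and 0.77 within the TGF-β1 libraries. These correlations are descriptions, since the genes were measured in the same libraries.

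The same few libraries were high or low for most of the set. TGF-β1 replicate 6 was the highest TGF-β1 library for 25 of 30 genes, and replicate 4 (16 genes) or replicate 3 (10 genes) the lowest. Hemin replicate 4 was the lowest hemin library for 23 genes, and hemin replicate 6 was above its group mean for 30 of 30. The median departure was 0.33, 0.06, -0.48, -0.09 and 0.29 on the log2 scale in hemin replicates 2 to 6. In the TGF-β1 group it was lowest in replicate 4 (-0.44) and highest in replicate 6 (0.66). Without TGF-β1 replicate 6 the median correlation was 0.57, the lowest value with any 1 library left out.

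**Figure D3:**
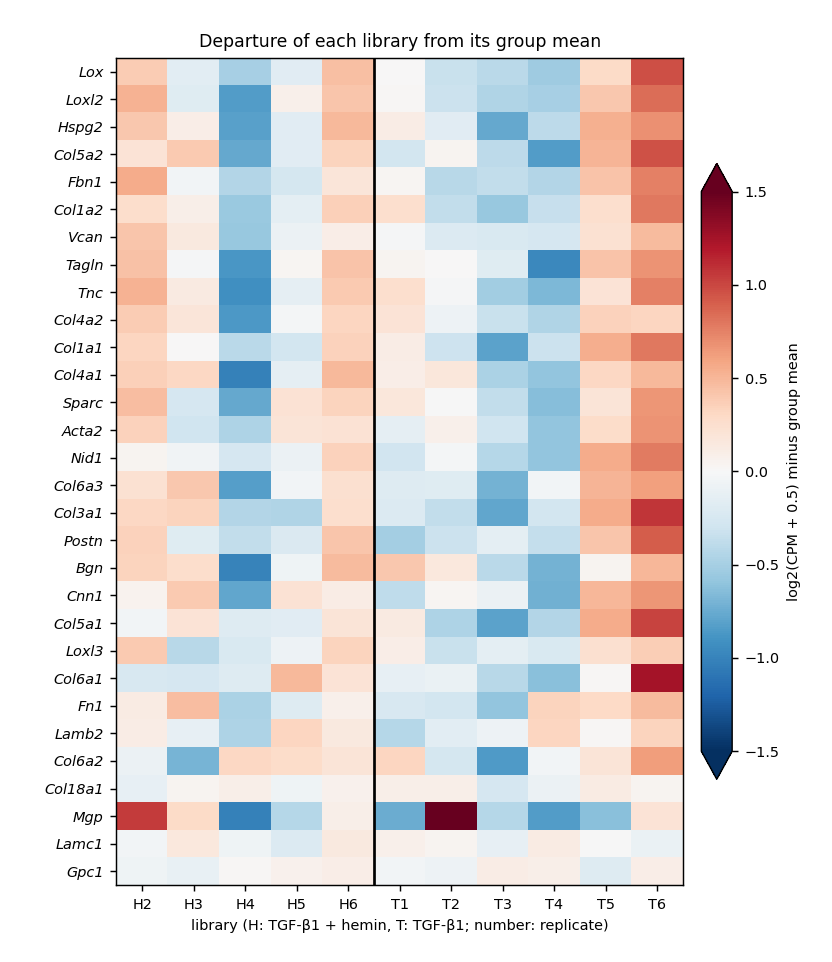
Departure of each tested gene from its group mean in every library, on the log2(CPM + 0.5) scale, with colour limited at ±1.5, hemin libraries on the left and TGF-β1 libraries on the right, and genes ordered by their median correlation with the rest of the set. TGF-β1 replicate 6 is high and TGF-β1 replicates 3 and 4 and hemin replicate 4 are low for most genes, while Gpc1, Lamc1 and Col18a1 show little of this. Mgp is also low in replicate 4 of both groups, but its highest value is in TGF-β1 replicate 2.

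Lox, Loxl2 and Hspg2 followed the rest of the set most closely, with a median correlation to the other genes of 0.86, 0.85 and 0.85. At the other end stood Gpc1 (-0.22), Lamc1 (0.03), Mgp (0.17) and Col18a1 (0.26). Col18a1, Gpc1 and Lamc1 also varied least within groups. The SD of their departures was 0.121, 0.109 and 0.124 on the log2 scale, against 0.50 for Col1a1 and 0.41 for Acta2.

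Col1a1 served as the point of comparison for single genes. Of the 29 other tested genes, 12 had a correlation above 0.8 with it, against 0.568% of all tested genes. For Col1a2 Pearson's r was 0.95 and Spearman's rho 0.94, with exact 2-sided permutation p-values within groups of 4.63e-05 and 0.000243. After adjustment over the 15131 genes compared with Col1a1 the p for r was 0.175, and r was 0.94 without TGF-β1 replicates 5 and 6, the libraries whose level of Col1a1 lay farthest from its median. On the departures themselves TGF-β1 replicates 3 and 6 lay farthest, at -0.81 and 0.79, and without those r was 0.92. That omission was chosen after seeing the data, and its r is given after the other for the genes that follow. For Hspg2 r was 0.95 and rho 0.99, and the exact permutation p for r of 1.16e-05 is the smallest the permutations can give (adjusted p = 0.0876). No gene of the set, and 0.0% of all tested genes, reached an adjusted p under 0.05 in the direction of r above 0. At the smallest possible p a gene on its own could not pass an adjustment over so many genes.

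Contractile genes and fibronectin followed Col1a1 less closely than Col1a2 did by these values, although the difference was not tested. Acta2 had an r of 0.76 and a rho of 0.82 (exact permutation p = 0.0151 for r, adjusted p = 0.734), and r was 0.48 without TGF-β1 replicates 5 and 6, and 0.66 without replicates 3 and 6. Fn1 had an r of 0.73 and a rho of 0.65 (exact permutation p = 0.0264 for r, adjusted p = 0.803), and r was 0.54 and 0.48 without the same pairs of libraries. For Acta2 and Fn1 r was lower without either pair. Tagln had an r of 0.75 and a rho of 0.91, and r was 0.57 without TGF-β1 replicates 5 and 6 and 0.81 without replicates 3 and 6. Cnn1 had an r of 0.61 and a rho of 0.75, and r was 0.18 and 0.61 without those pairs. Lamc1 had an r of 0.17, but 0.63 without TGF-β1 replicates 5 and 6 and 0.24 without replicates 3 and 6, so its relation to Col1a1 turned on which libraries entered. Gpc1 had an r of -0.26, and -0.35 and -0.46 without those pairs. Col18a1 had 0.51, and 0.40 and 0.19 without them. Col6a1 had 0.62, and 0.094 and 0.21 without them.

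**Figure D4:**
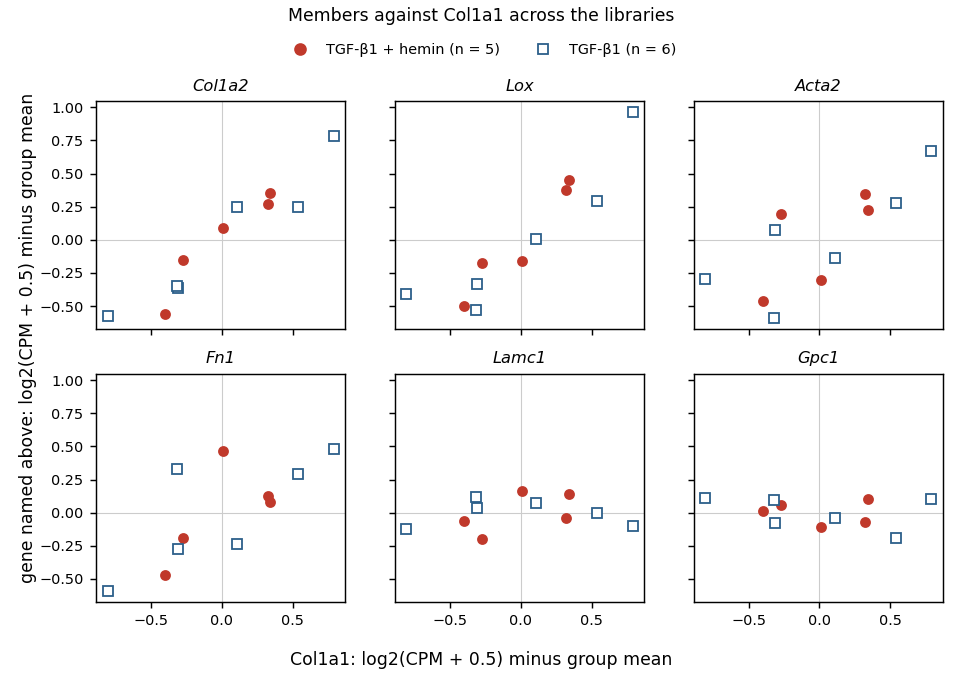
Departure from the group mean of Col1a1 (horizontal) against that of Col1a2, Lox, Acta2, Fn1, Lamc1 and Gpc1 (vertical), both on the log2(CPM + 0.5) scale, 1 point per library, hemin and TGF-β1 libraries in separate colours. Col1a2 and Lox lie close to a rising line (r of 0.95 and 0.92), Acta2 and Fn1 scatter more widely, and Lamc1 and Gpc1 show no clear rise over the 11 libraries (r of 0.17 and -0.26).

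Genes outside the set with the closest pattern were sought among 9414 tested genes with a mean of at least 1 FPKM. Likeness was Pearson's r of the same departures over 11 libraries and is a description. Col1a1 was most like Ltbp2 (0.94), Fkbp10 (0.93), Myl9 (0.93), Aebp1 (0.92) and Fstl1 (0.91). Acta2 was most like Ptgs2 (0.96), Tmcc1 (0.95), Myl9 (0.94), Ccn4 (0.94) and Gpx8 (0.94). The Fn1 list shared no gene with those. It held Ak4 (0.97), Notch4 (0.96), Gys1 (0.94), Txnip (0.92) and Runx3 (0.91).

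Other genes of the matrix pathway were counted list by list, beside the 8.43% of all tested genes that rose and the 5.75% that fell. At an unadjusted p under 0.05, 11.9% of all tested genes were lower, and DESeq2 called 8.05% of the genes it tested lower. The shares higher by those measures are not given here, so the list counts in that direction have no background beside them. Among 14 tested other collagens 0 rose and 2 fell in edgeR's test. At an unadjusted p under 0.05 there were 2 higher and 5 lower, and DESeq2 called 0 and 3. Col14a1, a fibril-associated collagen, fell to 2.42 ± 0.644 CPM in hemin libraries, against 10.3 ± 2.17 CPM in TGF-β1 libraries (SD, n = 5 and 6), and its groups did not overlap (log2 fold change -2.08, SE 0.19, adjusted p = 1.57e-06). Col11a1 fell with a log2 fold change of -1.24 (adjusted p = 0.0334), but passed in only 5 of the 11 fits that leave out 1 library. Among 23 tested collagen processing enzymes 2 rose and 2 fell. Plod3, a collagen lysyl hydroxylase, rose by 0.25 on the log2 scale (adjusted p = 0.000571) and in all 11 such fits. Mia3, which exports procollagen from the endoplasmic reticulum, was 0.20 higher and passed in 5 of those fits. P4ha1, a collagen prolyl hydroxylase subunit, had -0.15 and passed in 4, and Loxl4, another lysyl oxidase, had -1.03 and passed in 5.

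Of 13 tested other matrix glycoproteins 0 rose and 2 fell in edgeR's test, with 1 higher and 2 lower at an unadjusted p under 0.05 and 0 and 2 in DESeq2. Of 10 other proteoglycan and hyaluronan genes 0 rose and 4 fell, with 2 higher and 4 lower at an unadjusted p under 0.05 and 1 and 4 in DESeq2. Thbs1, thrombospondin-1, an activator of latent TGF-β, averaged 132 ± 20.7 CPM with hemin and 298 ± 50.3 CPM without (SD, n = 5 and 6). The groups did not overlap, with a log2 fold change of -1.18 (SE 0.12, adjusted p = 3.04e-06), and its correlation with Col1a1 was 0.85. Srgn, serglycin, the granule proteoglycan of blood cells, averaged 90.0 ± 7.89 CPM with hemin and 171 ± 30.7 CPM without, also with no overlap (log2 fold change -0.92, SE 0.10, adjusted p = 9.52e-06). Emilin2, a glycoprotein linked to elastic fibres, fell by 0.32 on the log2 scale (adjusted p = 0.00518). Has2, a hyaluronan synthase, fell by 1.32 (adjusted p = 0.0169) and failed to pass in 1 of 11 fits that leave out a library. The other genes that fell here, Gpc4 and Sdc3, each passed in 4 of those fits.

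Among 17 tested matrix receptors 3 rose and 2 fell, and each of the 5 passed in all 11 of those fits. Cd44, the hyaluronan receptor, rose by 0.28 on the log2 scale (adjusted p = 0.000268). Itga1, the integrin α1 chain of a collagen receptor, rose by 0.73 (adjusted p = 0.000577). Itga6, the integrin α6 chain of laminin receptors, fell by 0.69 (adjusted p = 4.56e-07), and Itgb5, the integrin β5 chain of a vitronectin receptor, fell by 0.28 (adjusted p = 0.000405). None of the 9 tested other basement membrane genes passed in edgeR or DESeq2, or at an unadjusted p under 0.05, the most abundant being Agrn, agrin, with a log2 fold change of 0.07 (adjusted p = 0.691). None of the 17 tested other contractile genes passed in edgeR's test, with 4 lower at an unadjusted p under 0.05 and 2 lower in DESeq2. The most abundant was Actn1, α-actinin-1, with a log2 fold change of -0.03 (adjusted p = 0.815).

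Markers of other cell types were low beside those of macrophages. The summed level of 14 fibroblast markers was 1.88 to 3.07 FPKM in hemin libraries and 3.68 to 6.33 FPKM in TGF-β1 libraries, ranges that did not overlap. No background for the overlap of such sums is given here. By their means over the 11 libraries, 11 of the 14 were under 0.5 FPKM. The sum includes the 2 markers that fell, named below, and the part of each gene in it is not given here. FPKM, the scale of all marker sums here, lacks the library scaling used for CPM. Lamc1, for one, had a log2 fold change of -0.17 on log2(FPKM + 0.1), against -0.06 on counts. Of the 14 markers, 9 were tested, 0 rose and 7 did not pass. The 2 that fell were Pi16 and Col14a1, where 5.75% of all tested genes fell. Both passed in all 11 fits that leave out 1 library, and Col14a1 is also one of the other collagens above. Mean levels of Pdgfrb, Thy1, Prrx1 and Pdgfra were 0.968, 0.247, 0.105 and 0.0679 FPKM, and Twist2, Tcf21, Dpt, Mfap5 and Meox1 were at 0 in more than 5 of the 11 libraries. None of those 4 named by level passed the test. The median correlation of the 9 tested markers with Col1a1 was 0.46, against -0.02 over all tested genes and -0.15 for the macrophage markers. The part of fibroblasts in the level and joint variation of the matrix genes was not tested.

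Smooth muscle and pericyte markers summed to 6.11 to 9.57 FPKM in hemin libraries and 6.80 to 14.9 FPKM in TGF-β1 libraries. Of 11, 7 were tested, 0 rose and 1 fell, Cspg4, which passed in 3 of 11 fits that leave out a library. The most abundant was Actg2, an enteric smooth muscle actin, at 4.78 FPKM, while Myh11, smooth muscle myosin, was at 0.0458 FPKM, and 4 markers were at 0 in more than 5 libraries. The 7 marrow stromal and osteoblast markers summed to 1.06 to 1.54 FPKM in hemin libraries and 1.68 to 2.29 FPKM in TGF-β1 libraries, with 5 at 0 in more than 5 libraries. Both tested ones fell. Cxcl12, a chemokine of marrow stroma, had a log2 fold change of -1.39 (adjusted p = 0.00213), and Runx2, the most abundant, had -0.35 and passed in 4 of 11 fits that leave out a library. Tubular epithelial markers, led by Krt8, summed to 1.56 to 6.23 FPKM in hemin libraries and 1.17 to 7.89 FPKM in TGF-β1 libraries, and 1 of 7 tested, Krt19, fell, beside 5.75% of all tested genes. The other 6 did not pass, and the median log2 fold change of the 7 was 0.44, against -1.99 for Krt19.

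Endothelial markers summed to 3.22 to 4.28 FPKM with hemin and 3.18 to 4.80 FPKM without, led by Vwf at 2.94 FPKM, and 0 of 4 tested passed. S100a8 at 6.25 FPKM, Mcpt8 at 0.278 FPKM and Cd79b at 0.184 FPKM were the most abundant neutrophil, mast cell or basophil, and lymphocyte markers, and the 1 gene tested in each list did not pass. Of the 10 macrophage markers 4 rose (Adgre1, Cd68, Cd14 and Ptprc) and 0 fell, against 8.43% and 5.75% of all tested genes. The rises were small, with log2 fold changes of 0.17, 0.33, 0.22 and 0.28 in that order. Cd14 did not pass in 1 of the 11 fits that leave out a library (adjusted p = 0.0513). Lyz2, lysozyme, was the most abundant of the 10 macrophage markers and did not pass (log2 fold change 0.32, adjusted p = 0.053). What these cell types contribute to the matrix values was not tested.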

How the data were processed

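RNA was measured in 11 macrophage libraries, 5 with TGF-β1 and hemin and 6 with TGF-β1 alone. Per the labels' protocols, polyadenylated RNA was copied to cDNA whose complementary strand was marked with uracil. The genome build was GRCm39 and the tools were HISAT2 2.2.1, StringTie 2.1.6, cutadapt 1.9, DESeq2 and FastQC 0.11.9, per the submitters' processing notes, which give neither role nor order. How reads were counted, with which strand setting and annotation, is not given in the sources used here. Its authors deposited a table with whole-number counts per gene, not normalized, and with their FPKM values.

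The members and the other lists were chosen with earlier results of these data known. Counts of all 25121 genes were filtered (edgeR filterByExpr, minimum count 10, minimum total 15), TMM-scaled and tested with edgeR 4.0.16 (quasi-likelihood, group term only, Benjamini-Hochberg, threshold 0.05) in R 4.3.3. Each SE is the log2 fold change divided by the square root of F, without its sign. CPM used TMM-scaled library sizes. Co-variation used log2(CPM + 0.5) minus the group mean. Correlations with Col1a1 were tested over 86400 exact orders within groups and adjusted over all tested genes, not over the set as first planned. Library pairs within groups differed by 27.2 to 192 chi-square units per degree of freedom, far above sampling noise. Pairs that held TGF-β1 replicate 2 gave 102 to 192, and all other pairs gave 72.8 or less. Alternatives were DESeq2 1.42.0, its size factors, no filter, the replicate number as a block, limma 3.58.1 on log2(FPKM + 1) or log2(FPKM + 0.1), and each library left out. The fits across genes and the permutation test were tested on simulated data.

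All genes of the set were named. From each other matrix list the named genes were at most 2 higher and 2 lower with the smallest adjusted p, or the most abundant where none passed, and from each marker list the most abundant. Further markers and the genes between Col6a2 and Col18a1 were named after their values were seen. Promoter windows came from RefSeq, GRCm38.p6, matched by symbol for 20 genes of the set.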

Additional observations from a re-analysis of the deposited data

Results flagged for a closer look

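In 62 groups of libraries checked, 2 held a library far from the others of its group. Chance gives about 1 in 20, so 2 of 62 is no more than chance would give. Col6a1 stood at 4.10 CPM in TGF-β1 replicate 6, and the next highest TGF-β1 library had 1.47 CPM. Mgp stood at 5.11 CPM in TGF-β1 replicate 2, and the next highest had 0.704 CPM.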

How the results depend on the processing

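Over 17 alternatives, 481 of the 510 log2 fold changes recomputed for the 30 genes kept their direction and their side of the threshold. Of the others 1 no longer passed, 10 newly passed as lower, and 18 changed sign, all in genes that never passed. The count called higher was 4, and 3 to 4 with 1 library left out. The count called lower was 0, became 1 with DESeq2 and 1 with the replicate number as a block (Cnn1 in both), and was 0 to 3 with 1 library left out. With 1 library left out the log2 fold change was -0.21 to 0.091 for Col6a3, -0.24 to 0.063 for Col4a1, -0.12 to 0.16 for Sparc, -0.13 to 0.13 for Acta2, -0.039 to 0.27 for Tagln and -1.46 to 1.20 for Mgp. That of Sparc was also 0.028 with the block and 0.0039 with no filter. The cause was not tested. Col6a1 was 0.47 and Col6a2 0.19 with limma on log2(FPKM + 1), a scale that shrinks changes of genes at under 1 FPKM, and both passed. The median correlation over the set was 0.57 to 0.72 with 1 library left out.

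Same-numbered libraries of the groups had correlations of 0.081, -0.083, 0.121, -0.127 and 0.135 for replicates 2 to 6. Not every one exceeded 0.1, a cut-off that cannot decide whether equal numbers mark a shared source, which the labels do not say. By that cut-off the numbers were not treated as pairs. Only replicate 6 matched its own number best, 1 of 5. Over the set, the median departure was -0.48 with hemin and -0.44 with TGF-β1 alone in replicate 4, and 0.29 with hemin and 0.66 with TGF-β1 alone in replicate 6. In replicates 2, 3 and 5 the signs of the groups differed. The values there were 0.33, 0.06 and -0.09 with hemin and -0.13, -0.40 and 0.29 with TGF-β1 alone. The block changed the calls over all genes to 939 higher and 593 lower, against 1276 and 870 without it, and called Cnn1 lower (log2 fold change -0.86, adjusted p = 0.00977). Among the macrophage markers it ended the call of Adgre1.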
